A study of Saccharomyces cerevisiae with 19 samples.

Results

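The genes described here encode the proteins of the cytosolic ribosome of budding yeast, Saccharomyces cerevisiae. They were chosen by symbol, as RPL (large subunit) or RPS (small subunit) followed by a digit, together with the stalk genes RPP0, RPP1A, RPP1B, RPP2A and RPP2B. The annotation holds 137 such genes among 6002 protein-coding genes, 76 of the large subunit, 56 of the small subunit and 5 of the stalk. At least 2 probes lay inside the coding region and were measured on every array for 89 of them, against 4896 genes of all kinds. A margin of 100 bp inside each end of the gene left 67 ribosomal protein genes for testing (40 large, 26 small and RPP0) among 4188 genes. Of the other 48 annotated genes 13 had 2 or more probes in the coding region that were not all measured on every array, and the rest had fewer. The median length of the 48 was 562 bp against 872 bp for the 67, and 22 more genes were lost to the margin. A window from 50 to 500 bp upstream of the coding start, outside any coding region, held a probe for 114 ribosomal protein genes, of which 72 had 1 probe and 53 were also among the 67. RPL13A and RPS16B, which are divergent, share their upstream probe.

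The arrays measured the binding of Sir3, the silencing protein that spreads along telomeric nucleosomes, by chromatin immunoprecipitation with a polyclonal anti-Sir3 antibody. Precipitated DNA (Cy5) was hybridised against whole-cell extract (Cy3) on 19 arrays in 11 groups, and a level below is log2 of that ratio minus the median of its array. All cells grew exponentially in YPD at 30 °C. All strains carry a GFP-tagged Rap1, and the comparisons ask how Sir3 binding changes with the amount of Sir3, with Sir2, with a Sir3 mutant and in a strain labelled as a dot1 mutant.

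The 2 WT arrays are of strain yAT191, which has GFP-RAP1 (LEU2) at rap1, ADE2 at ade2-1, a HIS3 replacement of ppr1, and URA3 with UASG sites and telomere repeats at adh4. Strain yAT1254 (pGPD-SIR3, 2 arrays) adds the GPD promoter in front of SIR3 to that background, and yAT1256 (pGPD-SIR3-A2Q, 2 arrays) adds a GPD-driven sir3 with the A2Q change. The release groups grew for 8 hours in fresh YPD after 5 mM nicotinamide (NAM), which inhibits the histone deacetylase Sir2. One of them is yAT1254 and the other is yAT3183, labelled dot1::KANMx in addition, where DOT1 is the gene of the histone H3 lysine 79 methyltransferase (2 arrays each). The arrays do not settle that label: 4 and 5 of the 5 DOT1 probes gave a ratio on the arrays labelled dot1, and none was missing on both. On the 10 arrays labelled with the ppr1 replacement, 1 of 12 PPR1 probes was missing on all 10 and measured on all 9 others. Each of those 10 arrays still gave a ratio at 10 or 11 of the 12, so a ratio alone does not show that PPR1 is present. The same 10 arrays, labelled as changed at adh4, mostly lacked ratios from the left end of chromosome 7 to ADH4. Of 48 probes there, 40 were missing on all 10, and 19 of these were measured on all 9 others. Each of the 10 arrays measured 5 to 7 of the 48. The labelled changes thus differed in how many probes lost their ratio. The labels also do not say which part of DOT1 was replaced, so its probes do not settle whether it was. Strains yAT2627 (pADH-SIR3, 2 arrays), yAT2629 (pTEF-SIR3, 2 arrays) and yAT2554 (pGPD-SIR3, 1 array) share RAP1-GFP, ADE2 at ade2-1 and an HPH replacement of HML, and differ in the promoter that drives SIR3. Strain yAT2476 (pGPD-SIR3, 1 array) has GFP-RAP1. Strain yAT1667 (pGPD-SIR2, 1 array) has RAP1-GFP, ADE2 in RDN1 and GPD-driven SIR2, and yAT1668 (2 arrays) adds GPD-driven SIR3 to it. The labels do not say that replicates came from separate cultures, so p-values rest on array-to-array spread that may be technical, and with 1 or 2 arrays a group the number of arrays limits the precision.

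Ribosomal protein genes are among the most strongly transcribed genes of growing yeast. Most of their promoters are bound by Rap1, which brings in Fhl1 and its coactivator Ifh1, and the genes rise and fall together with growth through TOR and Sfp1 signalling. Rap1 also binds telomere repeats and the silencers, where its C-terminal part recruits Sir3. Many ribosomal proteins are encoded by a pair of near-identical genes: of the 78 families here 59 have 2 copies. How far DNA of one copy hybridised to probes of the other was not tested.

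Between 40247 and 41270 of 41480 chromosomal probes were measured on each array. The median ratio before centring ran from 0.0292 on a WT array to 0.942. The spread of internal probes (their median absolute deviation, MAD) was 0.54 and 0.55 on the arrays labelled dot1 and 0.27 to 0.39 on the other 17. Replicate arrays correlated over all probes with Pearson's r from 0.730 (A2Q) and 0.743 (WT) to 0.976 (labelled dot1). Over the ribosomal protein genes the WT pair correlated least, at 0.438, against 0.80 or more in the other groups. The records fall into a first deposited set of 12 arrays and a later one of 7, which holds all release arrays and replicate 2 of the pADH-SIR3, the pTEF-SIR3 and the double overexpression strain.

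Sir3 signal over ribosomal protein coding regions lay above that of the typical gene on every array. Their median level was 0.35 and 0.20 on the WT arrays, 0.28 and 0.64 with pADH-SIR3, 0.46 and 0.49 with pTEF-SIR3, and 0.40 in yAT2554. It was 0.27 and 0.29 in yAT1254, 0.84 in yAT2476, 0.37 and 0.67 with A2Q, 0.09 with pGPD-SIR2, and 0.18 and 0.26 with both proteins overexpressed. The release arrays stood at 0.93 and 0.80, and those labelled dot1 at 0.17 and 0.31. The median of all genes stayed between −0.03 and 0.05. A raised level was not particular to ribosomal protein genes. Array medians of 14 highly transcribed glycolytic and pump genes ran from 0.22 to 1.32. The median of those array medians was 0.84, against 0.35 for the ribosomal protein genes and 0.18 for 22 translation factors. The ribosomal protein median corresponded to the percentile 59.7 of all genes on an array labelled dot1 and to the percentile 97.3 on an A2Q array. The highest group means, 0.87 ± 0.09 (SD, n = 2) after release and 0.84 in yAT2476 (n = 1), differed by less than the spread between the release arrays. The pADH-SIR3, pTEF-SIR3 and A2Q groups overlapped one another.

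**Figure D1:**
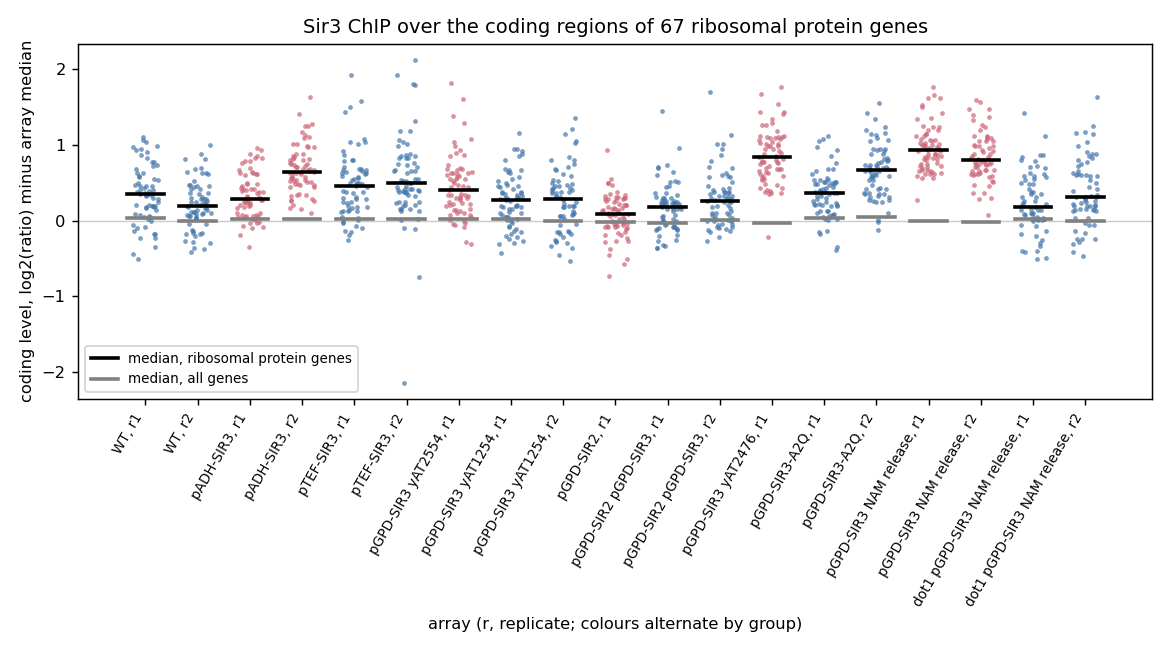
Coding level of each of the 67 ribosomal protein genes (points, log2 ratio minus the array median) on each of the 19 arrays, with their median (black bar) and the median of all genes (grey bar). The black bar lies above the grey bar on every array, from 0.09 with pGPD-SIR2 to 0.93 on a release array.

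The highest means over all 19 arrays were those of RPP0 (1.16), which forms the base of the ribosomal stalk, RPL3 (1.14), a core protein of the large subunit, RPS2 (1.13) of the small subunit, RPL5 (1.12), which binds 5S rRNA, and RPL16B (0.97). The lowest were RPS17A (−0.06), RPL36A (−0.05), RPL42A (−0.04), RPL21A (−0.03) and RPL15B (0.01). The median of gene means was 0.38 for the large and 0.45 for the small subunit. It was 0.91 for the 9 genes with a single copy and 0.36 for the 58 with a second copy. Correlations of the gene mean with gene length (r = 0.25), number of probes (0.165) and distance to the chromosome end (0.08) are descriptions over 67 genes on the same arrays.

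Both copies were tested in 19 families, and the median difference between copies was 0.165. In 4 families the same copy was higher on all 19 arrays. RPS17B averaged 0.74 against −0.06 for RPS17A, and RPS16A averaged 0.81 against 0.14 for RPS16B. RPL36B stood at 0.50 against −0.05 for RPL36A, and RPL15A at 0.54 against 0.01 for RPL15B.

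Coding levels differed among the 11 groups, by limma's moderated F test with Benjamini-Hochberg adjustment over all genes, for 59 of the 67 genes (88.1%) against a background of 71.2% of all genes. For the upstream windows it was 90 of 114 (78.9%) against 58.4%.

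The WT arrays had a pattern of their own along the genes. Their signal was highest upstream of the coding start and lower over the gene. In bins of 200 bp, WT averaged 0.48 between 600 and 400 bp and 0.51 between 400 and 200 bp upstream, then 0.18 over the first 200 bp of the gene and 0.32 between 400 and 600 bp inside it. In yAT1254 the same bins averaged 0.09, 0.11, 0.02 and 0.41. After release they averaged 0.54, 0.64, 0.73 and 0.99, so the level was higher inside the gene than upstream of it. Other genes averaged −0.02 in WT between 400 and 200 bp upstream.

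**Figure D2:**
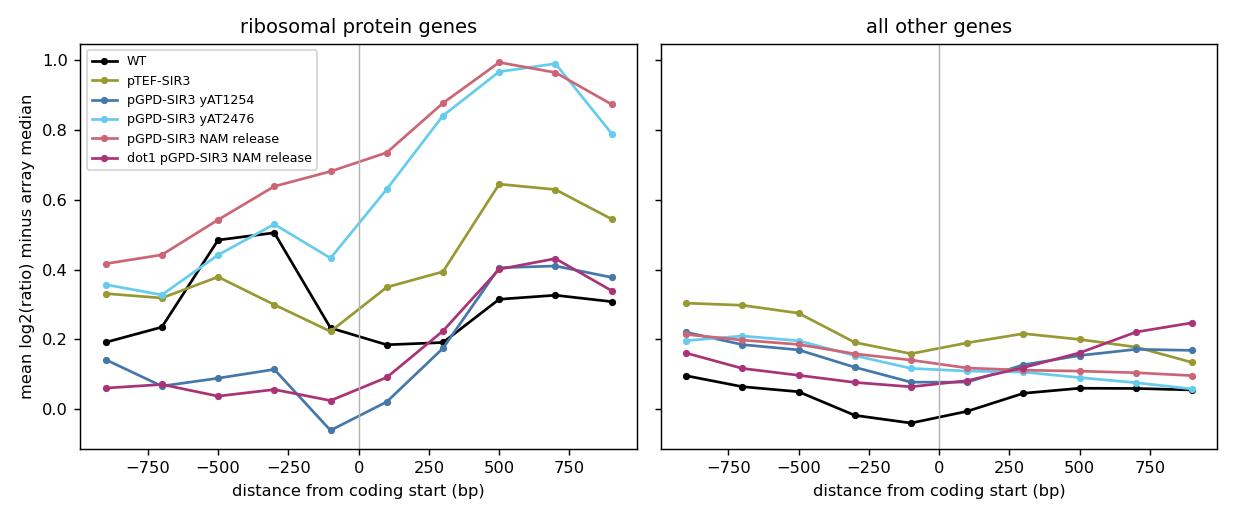
Mean level in bins of 200 bp by distance from the coding start (probe positions along the direction of transcription) for ribosomal protein genes (left) and all other genes (right) in 6 groups. The WT line peaks upstream of ribosomal protein genes at 0.51, whereas the release line reaches 0.99 inside the gene and the lines for other genes stay low.

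For the 53 genes with both measures, the median upstream level minus the median coding level was 0.11 and 0.30 on the WT arrays. It was negative on all 17 other arrays, between −0.50 and −0.20. The upstream level exceeded the coding level for 33 and 34 of the 53 genes on the WT arrays and for 6 to 19 on the others. Over all genes with both measures the share was 30.4% and 44.7% on the WT arrays and 25.7% to 49.6% on the others. Over all genes the same difference was below 0 on every array, WT included. Both WT arrays exceeded every one of the 17 other arrays at 19 of the 114 ribosomal protein windows (16.7%), against a background of 1.42% of all windows.

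The tests of the single windows ran over 5 comparisons that all use the same 2 WT arrays, so they are not independent of one another. The window was lower than in WT for 6 of 114 genes with pADH-SIR3 (background 0.554% of all windows), for 20 with pTEF-SIR3 (1.88%) and for 38 in yAT1254 (2.68%). It was lower for 25 with A2Q (6.49%) and for 26 with pGPD-SIR2 (2.17%), and higher for none with pADH-SIR3 (1.48%) or A2Q (0.842%), by limma with Benjamini-Hochberg adjustment over 4514 windows. The median difference over the 114 windows was −0.24, −0.16, −0.40, −0.34 and −0.37 in that order, against −0.06 to 0.11 for all windows. Windows of 43 genes were lower in at least 1 comparison and those of 71 in none. The share of all windows lower in at least 1 comparison is not given here, so these counts have no background beside them. Counts called in either direction depended on single arrays. Without WT replicate 1 they were 19 for pADH-SIR3, 36 for pTEF-SIR3, 40 in yAT1254 and 36 for A2Q, and without WT replicate 2 they were 6, 17, 22 and 15. Without replicate 1 or 2 of the other group they were 0 or 3 for pADH-SIR3, 10 or 11 for pTEF-SIR3, 21 or 13 in yAT1254 and 5 or 36 for A2Q. With levels divided by the MAD of their array they were 0 for pADH-SIR3 in place of 6 and 15 for pTEF-SIR3 in place of 27, and 30 in yAT1254, 17 for A2Q and 22 for pGPD-SIR2.

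RPL2B encodes a protein close to the peptidyl transferase centre, and its window was lower than in WT in all 5 comparisons. Its upstream probe (chromosome IX, 316326 to 316385, at −412.5 bp from the coding start) stood at 2.15 and 2.15 on the WT arrays, 1.17 and 1.22 with pADH-SIR3 and 0.90 and 0.68 with pTEF-SIR3. It stood at 0.86 in yAT2554, 0.81 and 0.45 in yAT1254, 0.65 with pGPD-SIR2, 1.08 in yAT2476 and 0.60 and 1.22 with A2Q. With both proteins overexpressed it was 0.19 and 0.10, after release 0.94 and 0.88, and on the arrays labelled dot1 0.10 and 0.10. The highest other array was at 1.22, and the yAT1254 arrays were lower than WT by 1.52 (SE 0.18, limma adjusted p = 4.11e-05). The probe at −5.5 bp averaged 0.07 in WT.

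Windows of RPL12B, RPL19A, RPL27B and RPS17B were likewise lower than WT in all 5 comparisons, but with levels divided by the MAD neither these nor RPL2B passed with pADH-SIR3. RPL19A stood at 1.15 and 1.45 on the WT arrays and between −0.49 and 0.61 on all others. RPL27B stood at 1.30 and 1.25 in WT and fell by 0.72 with pADH-SIR3 (adjusted p = 0.0228) and by 1.14 in yAT1254 (adjusted p = 0.000116). The windows of RPL11A, RPL13A, RPL13B, RPL19B, RPL26A, RPL26B, RPS11B, RPS13 and RPS16B were lower in 4 of the 5. Shares of all windows lower in 4 or 5 comparisons are not given, so this recurrence has no background beside it. Because the comparisons share their WT arrays, a window lower in several of them is not independently replicated. RPL11A, whose protein joins 5S rRNA together with Rpl5, stood at 0.96 and 1.00 in WT and at −0.20 and −0.23 in yAT1254 (adjusted p = 0.000213). Its copy RPL11B was at 0.84 and 1.07 in WT and 0.30 and 0.22 in yAT1254 (adjusted p = 0.00388). The groups of each pair did not overlap.

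**Figure D3:**
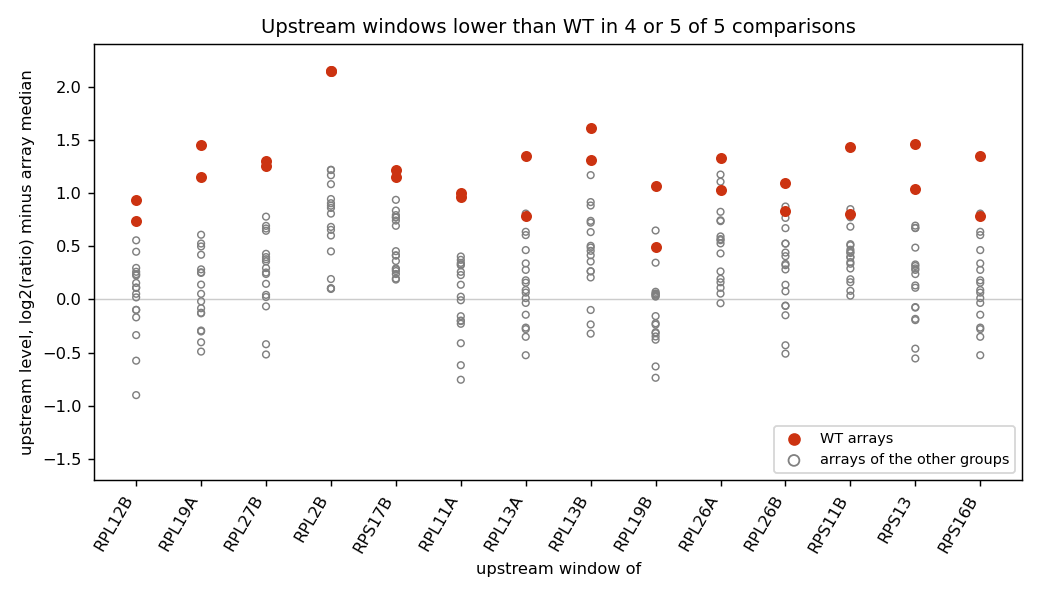
Upstream level (log2 ratio minus the array median) of the 14 windows that were lower than WT in 4 or 5 of the 5 comparisons, on the 2 WT arrays (filled) and the 17 other arrays (open). The RPL2B window is at 2.15 on both WT arrays and at most 1.22 on the others, and RPL13A and RPS16B share a probe.

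Not every window was high in WT. The RPL9B window, upstream of a large-subunit gene, was at 0.66 and 0.56 in WT, 1.14 and 1.09 with pADH-SIR3, 1.87 and 1.81 with pTEF-SIR3 and 1.08 and 1.18 in yAT1254. It was also 1.98 on the pGPD-SIR2 array, 1.37 above WT (SE 0.17, adjusted p = 0.000903), the highest level of that window. With A2Q it was 0.30 and 0.46, 0.75 below yAT1254 (adjusted p = 0.00142). Upstream windows called higher than WT numbered 7 of 114 with pTEF-SIR3 (background 14.8%), namely RPL9B, RPL29, RPL18B, RPL8A, RPS21B, RPS21A and RPL20B, and 1, RPL9B, in yAT1254 (9.68%) and with pGPD-SIR2 (5.05%). Those shares lie below the background.

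Over the coding regions, few single genes were called when SIR3 was driven by another promoter. No gene of the 67 was called with pADH-SIR3 (background 0.907% in either direction, 19 genes at an unadjusted p under 0.05 by limma) or in yAT1254 (7.64%, 4 genes unadjusted). With pTEF-SIR3, 5 rose, or 7.46% (background 8.07%), and none fell (0.86%). The share that rose was thus not above the background. Between pTEF-SIR3 and pADH-SIR3 no gene was called (3.68%, 7 unadjusted). The median difference from WT was 0.22 with pADH-SIR3, 0.20 with pTEF-SIR3 and −0.01 in yAT1254. Within the first deposited set, pADH-SIR3 replicate 1 differed from the WT arrays by −0.02 and 0.03, and pTEF-SIR3 replicate 1 by 0.09 and 0.21. The later replicate 2 lay above replicate 1 by 0.36 with pADH-SIR3 and by 0.11 with pTEF-SIR3. The part of the deposited set in these medians was not tested. Shares of all genes called with 1 array left out are not given. These counts depend on WT replicate 1: without it 11 genes were called with pADH-SIR3, 17 with pTEF-SIR3 and 6 in yAT1254, while without WT replicate 2 it was 2 with pTEF-SIR3 and without pTEF-SIR3 replicate 2 it was 1. Without replicate 1 of pADH-SIR3 or of yAT1254, 1 gene was called against WT, and without pTEF-SIR3 replicate 1, 2 against pADH-SIR3.

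The 5 genes that rose with pTEF-SIR3, a share near the background, were RPL5, RPL3, RPP0, RPS19B and RPL7A. RPL5 (YPL131W, chromosome XVI, 303121 to 304014) stood at 0.73 and 0.06 in WT, 0.94 and 1.28 with pADH-SIR3, 1.92 and 2.12 with pTEF-SIR3, 1.82 in yAT2554 and 0.94 and 1.21 in yAT1254. The pTEF-SIR3 arrays were 1.63 above WT (SE 0.24, limma adjusted p = 0.000656), and the groups did not overlap. RPL3 stood at 0.98 and 0.22 in WT and 1.50 and 1.80 with pTEF-SIR3, a difference of 1.05 (SE 0.25, adjusted p = 0.0185), with the WT arrays far apart. RPP0 was at 1.04 and 0.88 in WT and 1.58 and 1.79 with pTEF-SIR3, a difference of 0.73 (adjusted p = 0.0324). RPS19B and RPL7A rose by 0.51 and 0.49. In the first deposited set alone, with 1 pTEF-SIR3 array, none of the 5 passed, and their differences were 0.41 to 1.53.

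The RPL5 signal continued past the gene. With pTEF-SIR3 the probes rose from 0.10 at −309.5 bp from the coding start to 1.87, 2.18 and 2.48 inside RPL5, and then to 2.98 over the neighbour SPO19, a gene of sporulation that lies downstream. In yAT1254 the RPL5 probes read 0.91, 1.25 and 1.48 and the SPO19 probes 2.49 and 2.10. WT read 0.32 to 0.72 inside RPL5 and 0.79 and 0.42 over SPO19. With A2Q the RPL5 probes read 0.86, 0.74 and 0.84 while the SPO19 probes were at 0.08 and −0.15. So the highest level of this region lay outside RPL5, except with A2Q.

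**Figure D4:**
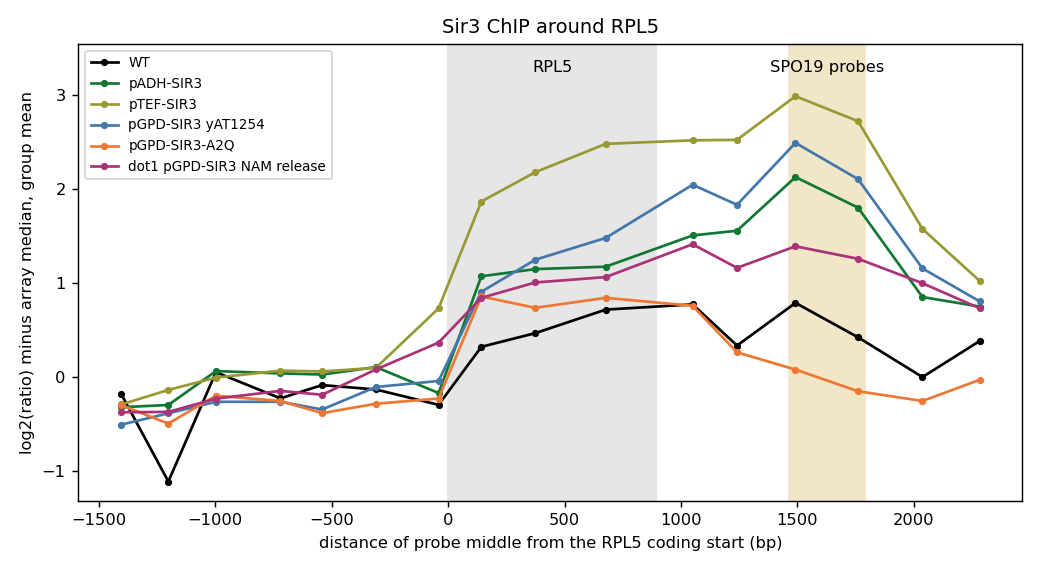
Group mean level of each probe around RPL5 against the distance of the probe from the RPL5 coding start, with RPL5 in grey and the span of the SPO19 probes in tan. The pTEF-SIR3 line rises through RPL5 to 2.98 over SPO19, and the A2Q line falls to −0.15 there.

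The A2Q change lies in Sir3 itself, and the counts of coding regions called with this mutant depend on the fit. Against WT no gene was called (background 1.41% in either direction, 15 at an unadjusted p under 0.05 by limma, 11 adjusted without WT replicate 1). Against yAT1254 none fell (background 7.93%) and 2 genes rose (1.29%), RPL22B by 0.43 (adjusted p = 0.0337) and RPL17B by 0.40 (adjusted p = 0.0283), and neither passed without yAT1254 replicate 2 or without A2Q replicate 2. Without yAT1254 replicate 1 the count was 1, and without A2Q replicate 1 it was 5. With the deposited set as a block 9 genes were called against yAT1254 in place of 2, and with the replicate block or with levels divided by the MAD it was 5. RPL22B stood at 0.26 and 0.31 with A2Q and at 0.02 and −0.30 in yAT1254. The median over the 67 genes was 0.26 higher than in yAT1254, against 0.06 for all genes. The A2Q arrays differed in this: replicate 1 was 0.11 and 0.09 above the yAT1254 arrays in the median, and replicate 2 was 0.36 and 0.37 above. Upstream, 3 windows were lower with A2Q than in yAT1254 (background 13.2%), RPS1A by 1.26, RPL8B by 0.77 and RPL9B by 0.75, and none was higher (0.487%). Without A2Q replicate 1, 6 windows were called.

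RPS1A lies beside SIR3, and its window lies between the 2 genes. In yAT1254 the probes read 0.70 and 0.39 inside RPS1A, 1.74 in the upstream window, and 2.52, 2.82, 3.26 and 3.62 going into SIR3. With A2Q the window was at 0.48 and the SIR3 probes at 0.40 to 0.47. With pGPD-SIR2 alone the window was at −0.04. Its rise of 0.69 from pADH-SIR3 to pTEF-SIR3 (adjusted p = 0.0479) was 1 of 2 windows called in that comparison (background 5.21% higher and 0.0222% lower), the other being RPL9B, and RPS1A passed in none of the fits that left out 1 array. Neither window passed with levels divided by the MAD.

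The array with SIR2 alone overexpressed had the lowest median over ribosomal protein genes. Of 67 genes 2 fell against WT (background 1.27%) and none rose (1.1%), with a median difference of −0.20 against −0.02 for all genes. RPP0 stood at −0.50 on the pGPD-SIR2 array and at 1.04 and 0.88 in WT, a fall by 1.47 (SE 0.23, limma adjusted p = 0.00811), and at 0.85 to 1.79 on the other 16 arrays. Its 3 coding probes read −0.98, −0.24 and −0.29 there, and its upstream probe −0.44, so all 4 were low. RPL33A fell by 0.72 (adjusted p = 0.0426), from 0.20 and 0.48 to −0.38. The group is 1 array, whose spread is taken from the others. Without WT replicate 2 the count was 5, and RPL33A, at −0.58, was not among them. Without WT replicate 1 it was 3.

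With SIR2 and SIR3 both overexpressed, 24 ribosomal protein genes were lower than on the array of the pGPD-SIR3 strain yAT2476. That strain is 1 array, whose spread is taken from the other groups. Against the 2 arrays of yAT1254, an alternative chosen after seeing the data, 4 genes were called. The share of all genes called against yAT1254 is not given. Of 67 genes 24 fell (background 2.03%) and none rose (7.28%), 15 of 40 large-subunit and 9 of 26 small-subunit genes, with a median difference of −0.61 against 0.01 for all genes. RPL22B stood at 0.88 in yAT2476 and at −0.11 and −0.21 with both (limma adjusted p = 0.00069). RPL10, a large-subunit protein added late in assembly, stood at 1.54 against 0.29 and 0.35, a fall by 1.22 (adjusted p = 0.00238), and RPL28 at 1.77 against 0.51 and 0.64 (adjusted p = 0.0133). RPL7A fell by 1.01 and RPS4B by 1.02. Differences in the other direction were 0.54 for RPL15B (adjusted p = 0.0632), 0.24 for RPP0, at 1.34 against 1.44 and 1.70 (adjusted p = 0.588), and 0.21 for RPL26A (adjusted p = 0.659), and none passed. Upstream, 11 of 114 windows fell (2.53%) and none rose (6.18%), among them RPS20 by 1.16, RPL22A by 1.17, RPP1B of the stalk by 0.88 and RPL2B by 0.94.

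The count depends on which pGPD-SIR3 strain is the reference. Shares of all genes and windows called against the other references, or with 1 array left out, are not given here. Those counts therefore have no background beside them. The yAT2476 array stood apart from yAT1254 in the same deposited set, with 64 of 67 genes above both yAT1254 arrays (background 33.8%), none below both (49%) and median differences of 0.59 and 0.61. In yAT2554, 49 of the 67 were above both (40.6%) and 2 below both (38.9%). Against yAT1254 4 coding genes and 7 windows were called for the double overexpression, and against yAT2554 1 gene and no window, alternatives chosen after seeing the data. Without replicate 1 of the double overexpression 14 genes were called and without replicate 2 it was 17, and 3 windows in both cases.

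After release from nicotinamide, coding levels of ribosomal protein genes were higher than at steady state in the same strain. Of 67 genes 40 rose (background 3.63%) and none fell (4.92%), 23 of 40 large-subunit and 17 of 26 small-subunit genes, with a median difference of 0.63 against −0.02 for all genes. RPL22B stood at 0.75 and 0.75 after release and at 0.02 and −0.30 in yAT1254 (difference 0.89, SE 0.11, limma adjusted p = 0.00168). RPS9A rose by 1.07 (adjusted p = 0.00225), from 0.05 and −0.18 to 1.03 and 0.99. RPS17A stood at −0.26 and −0.54 on the steady-state arrays and at 0.66 and 0.62 after release, higher by 1.04 (adjusted p = 0.0207). RPL17B rose by 0.72. Both release arrays exceeded both steady-state arrays for 65 of the 67 genes (background 28%) and were below both for none (34.6%).

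Several of the genes with the highest steady-state levels did not pass. Of the 9 genes with a single copy 1 rose, against 39 of 58 with a second copy, with median differences of 0.57 and 0.64, and the difference between these shares was not tested. RPL3 stood at 1.76 and 1.59 after release against 1.16 and 1.05 (adjusted p = 0.167), and RPL5 at 1.67 and 1.48 against 0.94 and 1.21 (adjusted p = 0.217). RPP0 stood at 1.20 and 1.33 against 0.95 and 1.36 (adjusted p = 0.754). Upstream, 53 of 114 windows rose (8%) and none fell (2.97%), RPS3 by 1.28, RPS4B by 0.98 and RPL26A by 0.96. The median difference was 0.59 against 0.11 for all windows. Of the stalk genes, RPP2B rose upstream by 0.88 (adjusted p = 0.0238), and RPP1A, RPP1B, RPP2A and RPP0 did not pass, with differences of 0.12, 0.41, 0.88 and 0.00.

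Both release arrays belong to the later deposited set and both steady-state arrays to the first, so condition and set are tied except through the 3 groups that span them. Within those groups the median over genes of the later minus the first array was 0.36 (pADH-SIR3), 0.11 (pTEF-SIR3) and 0.16 (double overexpression). With the deposited set as a block 9 coding genes and 2 windows were called in place of 40 and 53. The shares of all genes and windows called under that block are not given here, so these 2 counts have no background beside them. Without release replicate 1 it was 2 genes and 1 window, without release replicate 2 16 and 32, and without yAT1254 replicate 1 or 2 it was 12 or 11 genes and 12 or 16 windows.

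The arrays labelled dot1 had lower levels over ribosomal protein genes after release than the release arrays of yAT1254, both from the later set. The probes of DOT1, as given above, do not check the label, and the DOT1 coding level itself differed by −0.09 between the groups (limma adjusted p = 0.584). Of 67 genes 47 fell (background 23.9%) and none rose (27.6%), 29 of 40 large-subunit and 18 of 26 small-subunit genes, with a median difference of −0.64 against −0.03 for all genes. RPL10 fell by 1.37 (SE 0.16, limma adjusted p = 1.64e-05), from 1.53 and 1.40 to 0.05 and 0.14. RPL27B fell by 1.05 (adjusted p = 1.94e-05), from 0.70 and 0.67 to −0.49 and −0.25. RPL28 fell by 1.19 and RPL34A by 1.12. RPL3 fell by 0.90 (adjusted p = 0.00914) and RPL5 by 0.65 (adjusted p = 0.038).

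The other 20 genes did not pass. RPS2 stood at 1.43 and 1.64 on the arrays labelled dot1 and 1.50 and 1.20 on the yAT1254 release arrays (difference 0.18, interval −0.29 to 0.65, adjusted p = 0.505). RPL31B was 0.30 higher (adjusted p = 0.162) and RPP0 0.30 lower (adjusted p = 0.202). Both arrays labelled dot1 were below both yAT1254 release arrays for 60 of the 67 genes (background 42.8%) and above them for 1 (39.2%). The 4 pairs of arrays gave median differences over the genes from −0.78 to −0.50. Compared with the steady-state arrays of yAT1254, the arrays labelled dot1 were lower at 18 genes (44.4%) and higher at 20 (39.2%). Counts without 1 array ran from 29, without replicate 1 labelled dot1, to 41, and the count was 30 without release replicate 1.

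**Figure D5:**
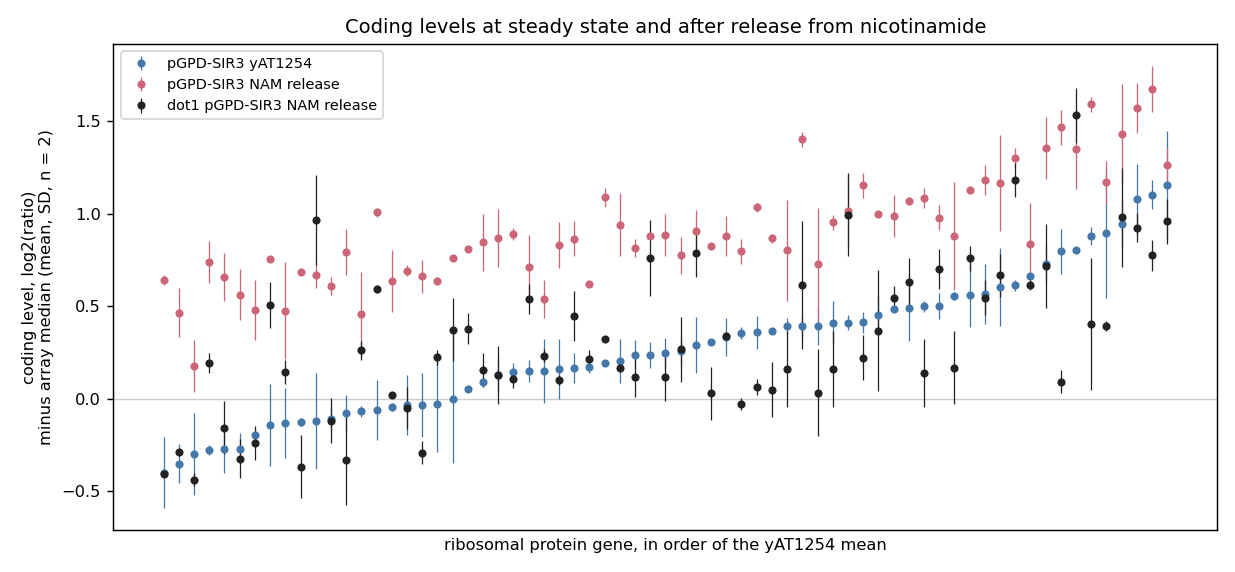
Mean coding level of each of the 67 ribosomal protein genes (log2 ratio minus the array median, bars are the SD, n = 2) in yAT1254 at steady state, after release, and after release on the arrays labelled dot1, in order of the steady-state mean. The release points lie above the steady-state points along the whole axis, by 0.63 in the median, and most points labelled dot1 lie below the release points.

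Upstream windows were lower as well on the arrays labelled dot1. Of 114 windows 70 were lower (24.9%), with a median difference of −0.64 against −0.18 for all windows, RPL26B by 1.29, RPL10 by 1.24, RPL27B by 1.19 and RPL9B by 1.10. Of the stalk genes, RPP1A, RPP1B and RPP2B fell by 0.54, 0.48 and 0.85, and RPP2A (adjusted p = 0.0795) and RPP0 (0.721) did not pass. RPL11A fell by 0.99 (adjusted p = 0.000548), whereas its copy RPL11B changed by −0.11 (adjusted p = 0.559). The window of RPL40B, a gene of a ubiquitin and ribosomal protein fusion, was the 1 window that rose (12.3%): it stood at 1.65 and 1.87 on the arrays labelled dot1 and at 0.41 and 0.65 on the yAT1254 release arrays (adjusted p = 0.00026), and did not pass with levels divided by the MAD. Without release replicate 1, 38 windows were called in either direction, and without replicate 2 labelled dot1, 44, in place of 71.

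Other gene lists are given for the same comparison against the backgrounds of 27.6% rising and 23.9% falling, and differences between lists were not tested. Among translation factors 10 of 22 rose and 2 fell on the arrays labelled dot1, NIP1, a subunit of initiation factor eIF3, by 2.62, and among ribosome assembly factors 22 of 52 rose and 3 fell, with UTP14 at 1.50. Among regulators of ribosomal protein genes 6 of 10 rose and 1 fell, with SFP1 at 1.99. Mitochondrial ribosomal protein genes fell in 11 of 30 and rose in 3. Glycolytic and pump genes, which are transcribed as strongly, fell in 7 of 14 and rose in 3. The arrays labelled dot1 have the widest spread of all, given above, and its part in these counts was not tested. With levels divided by the MAD, 62 of the 67 genes fell. The share of all genes that fell under that scaling is not given, and the 23.9% above belongs to unscaled levels. That MAD was 0.54 and 0.55 on the arrays labelled dot1 and 0.33 and 0.27 on the release arrays. The division alone therefore lowers positive levels more on the arrays labelled dot1, and the 62 falls are no test of the spread.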

How the data were processed

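Each array is a 2-colour scan. The deposited ratio of precipitated over whole-cell-extract intensity, made by the authors per the file headers, was used as it stands, and values at or below 0, on 5 arrays, were set missing. The sources used here do not give the scanner software, the probe build or the ratio method. The log2 ratio was centred on each array's median over chromosomal probes, with no loess or quantile step. The deposited table of ratios that the authors rescaled per array and filled was an alternative. Genes and coordinates are those of the R64 annotation from RefSeq. Probe coordinates on chromosomes X and XI are shifted against it, so a margin of 450 bp was used on the upper side there in place of 100 bp. A gene needed 2 probes measured on all 19 arrays and an upstream window 1 probe.

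Levels were tested with limma 3.58.1 in R 4.3.3 (group means over all 19 arrays, 8 residual degrees of freedom, eBayes), with Benjamini-Hochberg adjustment over all genes of a comparison and a threshold of 0.05. The fit was tested on simulated data. The replicate numbers were checked over 28 pairs of groups: deviations correlated from −0.34 to 0.64, above 0.1 in 10 (0.22 to 0.64 among the 3 groups that span both deposited sets), so the numbers were not taken to pair the arrays. Alternatives were MAD scaling, probe rules, the filled table, and blocks for deposited set, slide and replicate number.

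Named genes were those past the threshold (at most 12 per comparison by adjusted p), the 5 highest and 5 lowest means, and RPL5, RPL3, RPP0, RPL11A, RPL11B and the stalk genes. The values of 1 gene are not reported here. Members and gene lists were chosen with earlier results of these data known.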

Additional observations from a re-analysis of the deposited data

How the results depend on the processing

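Counts of ribosomal protein genes called are given here with the value above in brackets, coding regions first. Shares of all genes or windows under these alternatives are not given, so the counts have no background beside them. With levels divided by the MAD they were 1 (0) for pADH-SIR3, 8 (5) for pTEF-SIR3, 1 (0) for yAT1254, 1 (0) for A2Q against WT and 5 (2) for A2Q against yAT1254. Without the margin they were 10 (5) for pTEF-SIR3, 1 (0) for yAT1254 and 4 (2) for pGPD-SIR2. With at least 3 probes, which leaves 13 ribosomal protein genes, they were 0 for A2Q against yAT1254, 2 for the double overexpression, 8 after release, 8 for the arrays labelled dot1 and 12 by the F test. With the median over probes they were 1 (0) for pADH-SIR3, 1 (0) for A2Q and 1 (2) for pGPD-SIR2, and the filled table gave 1 (0) for pTEF-SIR3 against pADH-SIR3. The deposited set as a block gave 2 for pTEF-SIR3, 2 for pTEF-SIR3 against pADH-SIR3, 2 for A2Q against WT, 9 for A2Q against yAT1254, 4 for pGPD-SIR2 and 9 (40) after release. The replicate block gave 8 for pTEF-SIR3, 2 for pTEF-SIR3 against pADH-SIR3, 1 for A2Q against WT, 5 for A2Q against yAT1254 and 1 for pGPD-SIR2. The first set alone gave 0 for pTEF-SIR3, 0 for A2Q against yAT1254, 0 for pGPD-SIR2 and 10 (24) for the double overexpression. The slide block gave 1 for A2Q against yAT1254, and yAT1254 or yAT2554 as the reference gave 4 or 1 for the double overexpression, both chosen after seeing the data. For the upstream windows, MAD scaling gave 0 (6) for pADH-SIR3, 15 (27) for pTEF-SIR3, 0 (2) for pTEF-SIR3 against pADH-SIR3, 5 (3) for A2Q against yAT1254 and 6 (11) for the double overexpression. The deposited set as a block gave 1 (2) for pTEF-SIR3 against pADH-SIR3 and 2 (53) after release, the replicate block gave 1 (2) for the former, and the 2 other references gave 7 and 0 (11). Leaving out 1 array at a time, where a lone array is assumed to vary like the other groups, coding counts ran from 0 to 11 for pADH-SIR3, 1 to 17 for pTEF-SIR3, 0 to 6 for yAT1254, 0 to 11 for A2Q against WT, 3 to 5 for pGPD-SIR2, 0 to 2 for pTEF-SIR3 against pADH-SIR3, 0 to 5 for A2Q against yAT1254, 2 to 16 after release, 14 to 17 for the double overexpression and 29 to 41 for the arrays labelled dot1. Upstream counts ran from 0 to 19, 10 to 36, 13 to 40, 5 to 36, 31 to 34, 1 to 1, 2 to 6, 1 to 32, 3 to 3 and 38 to 60 in that order. Of 1074 values of named genes under the alternatives, 905 kept direction and side of the threshold, 169 no longer passed and 0 reversed. These values belong to 139 pairs of gene and comparison that were named because they passed. That choice favours agreement, and the alternatives reuse the same arrays, so the totals are no independent check. They leave out the other reference strains. In the first set alone 6 values kept and 15 no longer passed. The causes of these shifts were not tested beyond the smaller numbers of genes or arrays that some alternatives leave.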

Other observations

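The upstream window of RPL7A rests on 1 probe whose replicates differed widely: it stood at 0.90 and 2.46 in yAT1254 and at 2.43 and 1.12 with pADH-SIR3, against 0.50 in yAT2554. The coding level of RPL20A on pTEF-SIR3 replicate 2, at −2.14, was the lowest of any ribosomal protein gene, against 0.30 on replicate 1.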
